A study of Mus musculus with 10 samples.

Results

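The genes described here are 9 genes of ribosomal RNA transcription: Tcof1, the gene mutated in most people with Treacher Collins syndrome, the RNA polymerase I subunit genes Polr1a, Polr1b, Polr1c, Polr1d and Polr1e, the transcription factor genes Ubtf and Rrn3, and Nolc1. They were taken as a list by gene symbol from 49671 genes in the deposited tables. All 9 were found and all 9 had enough counts to be tested, among 14528 tested genes. In GRCm38 coordinates with GENCODE M21 exons, Polr1a (ENSMUSG00000049553) on chromosome 6 from 71909053 to 71984935 and Polr1b (ENSMUSG00000027395) on chromosome 2 from 129100995 to 129126594 lie on the plus strand. So do Polr1d (ENSMUSG00000029642) on chromosome 5 from 147077050 to 147111597, Polr1e (ENSMUSG00000028318) on chromosome 4 from 45018583 to 45036565, Rrn3 (ENSMUSG00000022682) on chromosome 16 from 13780708 to 13814839 and Nolc1 (ENSMUSG00000015176) on chromosome 19 from 46075863 to 46085530. On the minus strand are Polr1c (ENSMUSG00000067148) on chromosome 17 from 46243920 to 46248054 and Ubtf (ENSMUSG00000020923) on chromosome 11 from 102304560 to 102319742.

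RNA polymerase I (Pol I) is the enzyme that transcribes the ribosomal RNA genes in the nucleolus, the step that sets how many ribosomes a cell can build. UBF, made from Ubtf, opens the ribosomal DNA, TIF-IA, made from Rrn3, brings the polymerase to the promoter, and treacle, made from Tcof1, is a nucleolar phosphoprotein that binds both UBF and the polymerase. In humans, mutations in TCOF1, POLR1B, POLR1C or POLR1D cause Treacher Collins syndrome, and mutations in POLR1A cause a related facial disorder. In mice with a single working copy of Tcof1, progenitors of the neural crest, which forms most of the facial skeleton, are lost through p53, the transcription factor that was activated in this study.

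RNA was sequenced from cells sorted from single mouse embryos at embryonic day 10.5. The 5 p53_activated embryos were Wnt1Cre;R26mTmG;p53LSL-25,26/+, in which the Cre recombinase releases a stabilised p53 from 1 p53 allele while the other allele is normal. The 5 control embryos were littermates of genotype Wnt1Cre;R26mTmG;p53+/+. Both groups thus carried Wnt1Cre and the R26mTmG reporter, which makes Cre-exposed cells green, and both were on a mixed 129/Sv-C57BL/6 background. Wnt1-Cre acts in the dorsal neural tube from which the crest arises, so the sorted GFP-positive cells can hold neural tube cells as well as crest.

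Library totals were 14644162 to 28379562 counts in p53_activated libraries and 12368058 to 23514828 in control libraries, and the 9 genes had between 421 and 12619 counts in a library. As a check of the labels, all 6 p53 target genes read for this purpose were higher in p53_activated embryos, among them Cdkn1a, the p21 gene (105 ± 11.9 CPM in p53_activated against 7.93 ± 1.59 CPM in control libraries, mean ± SD of 5, where CPM is a count scaled to the library total with TMM factors). The 8 neural crest markers summed to 253 to 302 CPM in p53_activated and 249 to 316 CPM in control libraries, and 0 of 8 were called. Neuron markers summed to 237 to 338 CPM in p53_activated against 453 to 595 CPM in control libraries, with 7 of 8 called lower. Neural tube markers summed to 849 to 1160 CPM in p53_activated against 658 to 1120 CPM in control libraries, and 1 of 6 was called, Olig3, at 9.51 to 14.1 CPM in p53_activated against 3.93 to 8.96 CPM in control libraries (log2 fold change 0.85, edgeR adjusted p = 0.0237). All 6 epithelial markers had a log2 fold change below 0 (median -0.81) and 0 were called, with sums of 41.0 to 120 CPM in p53_activated against 73.8 to 176 CPM in control libraries. No marker of the other cell types read (neural tube, epithelium, erythroid, macrophage, endothelium and muscle) was at 0 in every library, and summed erythroid markers ran from 493 to 5940 CPM in p53_activated and from 818 to 4430 CPM in control libraries. Control replicates 1 and 2 stood apart, with ratios of the embryonic globins Hbb-y to Hbb-bh1 of 4.97 and 2.69, against 1.59 to 2.08 in the other 8 libraries. Lin28a, which encodes an RNA-binding protein of early embryonic cells, was at 10.8 CPM in p53_activated replicate 2 and at 2.96 and 6.21 CPM in control replicates 1 and 2, against 17.6 to 24.8 CPM in the other 7. In bulk RNA, fewer cells of a type and less RNA per cell cannot be told apart. The part of cell makeup in the values below was not tested.

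No gene of the 9 passed the test between the groups. By the edgeR quasi-likelihood test with Benjamini-Hochberg adjustment over all tested genes, 0 of 9 had an adjusted p under 0.05, where 7.23% of all tested genes did (652 or 4.49% higher and 398 or 2.74% lower in p53_activated embryos, but 576 higher and 538 lower with upper quartile scaling). DESeq2 and limma-voom also called 0 of 9, with 11.8% and 6.17% of all genes called. At an unadjusted p under 0.05 there were 3 of 9 (Polr1a, Rrn3 and Nolc1), all above 0, against 22.6% of all tested genes in either direction and 12.0% higher. The groups overlapped in all 9 genes, while they did not overlap in 8.07% of tested genes (4.54% higher). In 8 of 9 genes the log2 fold change was above 0, and in Polr1d below 0. Their median was 0.21, against -0.01 over all tested genes, of which 48.6% were above 0. Without both control replicates 1 and 2 the median of the 9 was 0.10, with 7 above 0 and 2 below, and without both p53_activated replicates 4 and 5 it was 0.29, with 9 above 0.

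The intervals describe how large a difference could be in the fit to all 10 libraries. Each is for 1 gene and is not adjusted over the 9 genes. For 7 of the 9 genes the 95% interval of the fold change, p53_activated over control, lay below 1.5-fold, and for 8 of 9 it excluded a level 1.5-fold lower. Tcof1 met neither bound, with an interval that ran from 0.663 to 2.04. Polr1b, with an interval of 0.950 to 1.93, was the other gene that could be over 1.5-fold higher.

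**Figure D1:**
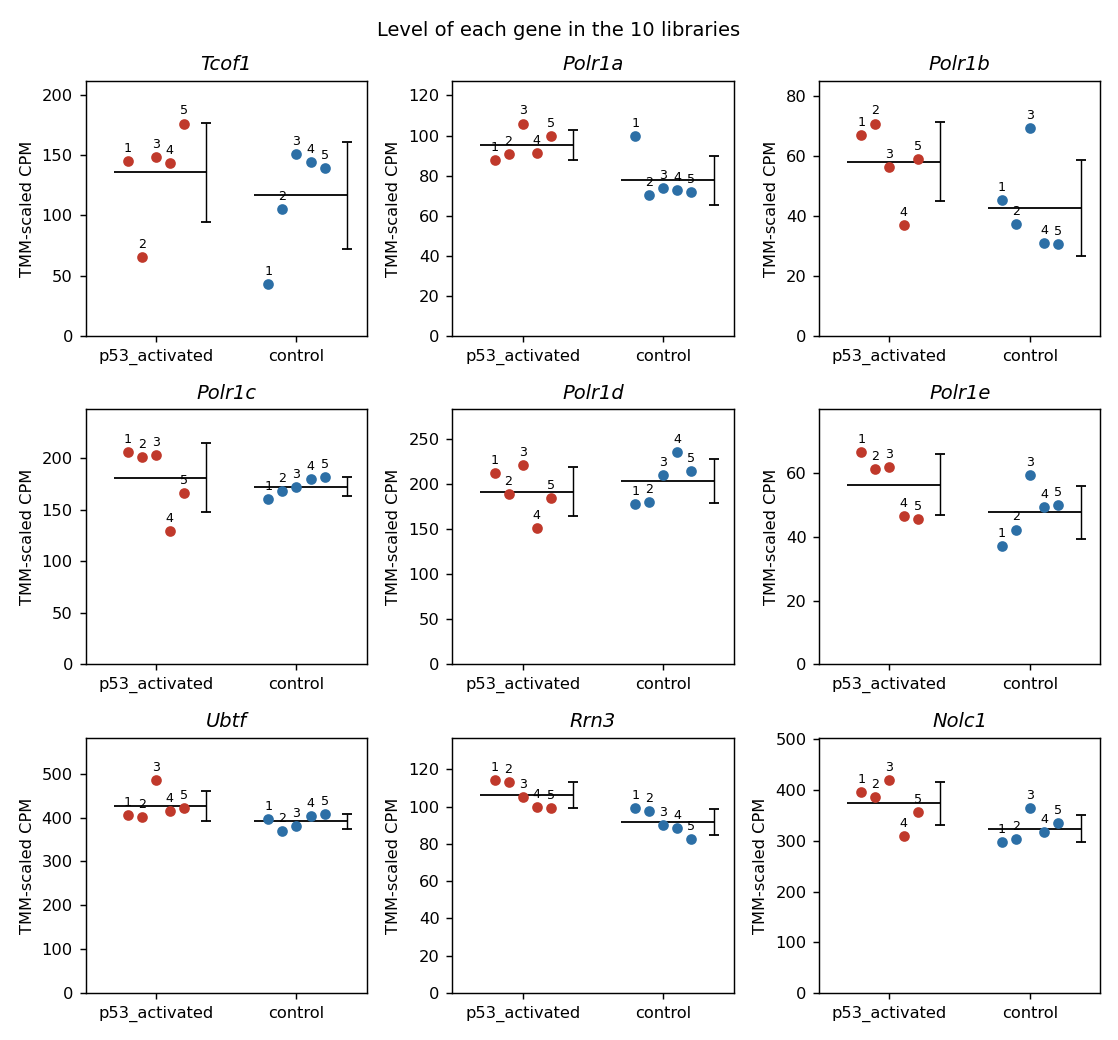
TMM-scaled CPM of each of the 9 genes in the 5 p53_activated (red) and 5 control (blue) libraries, with replicate numbers above the points and the mean ± SD as black lines. The groups overlap in every panel, and Tcof1 is low in p53_activated replicate 2 (65.7 CPM) and control replicate 1 (43.4 CPM).

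**Figure D2:**
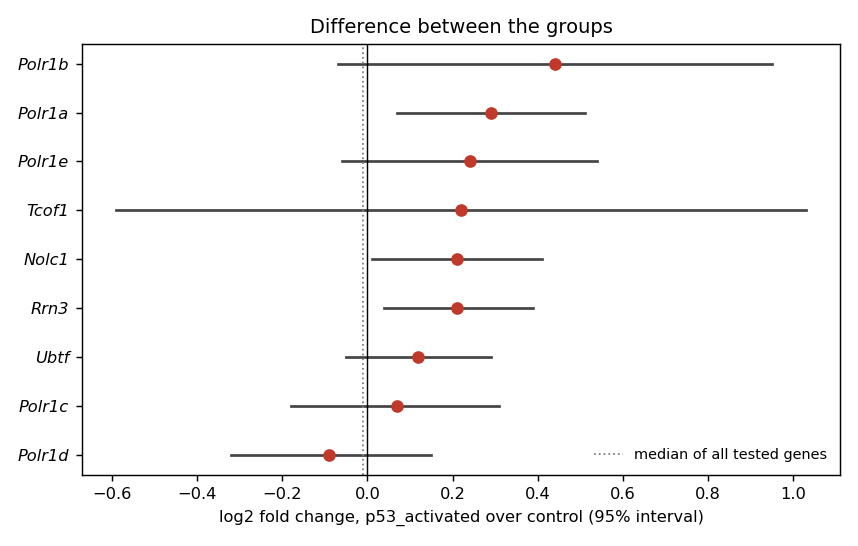
Log2 fold change of each gene, p53_activated over control (dots), with its 95% interval (lines), and the median of all tested genes (dotted line). Intervals are wide for Tcof1 (-0.59 to 1.03) and Polr1b (-0.07 to 0.95) and narrow for Ubtf (-0.05 to 0.29).

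Tcof1 had no detectable difference between the groups but differed widely among embryos of the same group. In p53_activated libraries it stood at 145, 65.7, 148, 143 and 176 CPM (replicates 1 to 5), against 43.4, 105, 151, 144 and 139 CPM in control libraries. The lowest libraries were control replicate 1 and p53_activated replicate 2. Control replicate 2 was next at 105 CPM, close to its group mean on the log2 scale (deviation -0.02). In p53_activated replicate 5 Tcof1 was above every control library, and the groups overlapped. Levels were 136 ± 41.3 CPM in p53_activated and 117 ± 44.5 CPM in control libraries (mean ± SD of 5). The log2 fold change was 0.22 ± 0.36 (± SE, as for every fold change given with an error, edgeR adjusted p = 0.78). The 2 lowest libraries moved it: the log2 fold change was 0.39 (adjusted p = 0.533) without p53_activated replicate 2 and 0.01 (adjusted p = 0.991) without control replicate 1. Without control replicate 2 alone it was 0.19 (adjusted p = 0.859), and without both control replicates 1 and 2 it was -0.09 (adjusted p = 0.899). The 3 libraries with the lowest Tcof1 CPM were also the 3 with the lowest Lin28a, but in another order. Lin28a was lower in control replicate 2 (6.21 CPM) than in p53_activated replicate 2 (10.8 CPM), while Tcof1 was higher there. A link between Lin28a and the Tcof1 values was not tested. Tcof1 (ENSMUSG00000024613) lies on chromosome 18 from 60813755 to 60848971 (GRCm38, GENCODE M21), and no other annotated gene shares its exons.

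The 2 large subunits form the catalytic centre of Pol I. Polr1a, which encodes the largest subunit, had 87.8, 90.7, 106, 91.3 and 99.6 CPM in p53_activated libraries, against 99.7, 70.2, 73.8, 72.7 and 71.6 CPM in control libraries. Control replicate 1 was the single control library inside the p53_activated range, and the other 4 control libraries lay below it. The log2 fold change was 0.29 ± 0.11 (edgeR adjusted p = 0.11). Polr1a passed without control replicate 1 (log2 fold change 0.40, adjusted p = 0.00959) and without both control replicates 1 and 2 (0.38, adjusted p = 0.0253). With a trend on exon length taken out it was 0.15 (adjusted p = 0.458), and with 11871 bases of merged exon Polr1a is the longest of the 9. It shares 1.56% of its exon length with a gene on the opposite strand.

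Polr1b encodes the second largest subunit and had 67.0, 70.9, 56.5, 37.0 and 59.2 CPM in p53_activated libraries, against 45.4, 37.5, 69.4, 30.9 and 30.7 CPM in control libraries. In p53_activated embryos 4 of 5 libraries were above 50 CPM, and in control embryos 1 of 5, replicate 3. The log2 fold change of 0.44 ± 0.23 did not pass (edgeR adjusted p = 0.301), but did without control replicate 3 (0.69, adjusted p = 0.0327).

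Polr1c and Polr1d encode the small pair of subunits that Pol I shares with RNA polymerase III and on which the enzyme is assembled. Polr1c had 206, 201, 203, 129 and 166 CPM in p53_activated libraries, against 160, 168, 172, 180 and 182 CPM in control libraries. Replicates 1, 2 and 3 of the p53_activated group were above all controls and replicate 4 was below them, and the log2 fold change was 0.07 ± 0.12 (edgeR adjusted p = 0.78). It ran from 0.02 without p53_activated replicate 1 to 0.17 without p53_activated replicate 4 (adjusted p = 0.267), and was 0.25 (adjusted p = 0.108) without both p53_activated replicates 4 and 5. Polr1d had 213, 189, 221, 152 and 185 CPM in p53_activated libraries, against 178, 180, 210, 236 and 215 CPM in control libraries. Its log2 fold change was -0.09 ± 0.11 (adjusted p = 0.704). It was -0.01 without p53_activated replicate 4 and 0.04 without both p53_activated replicates 4 and 5, against -0.20 (adjusted p = 0.362) without both control replicates 1 and 2. The groups overlapped broadly, with p53_activated replicate 4 again the lowest library.

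Polr1e encodes the subunit also called PAF53, part of a dimer on the flank of the enzyme that takes part in starting transcription. It had 66.6, 61.2, 61.8, 46.5 and 45.7 CPM in p53_activated libraries, against 37.2, 42.3, 59.4, 49.3 and 50.0 CPM in control libraries. In p53_activated embryos 3 libraries were above every control library and the other 2 fell within the control range. Polr1e had a log2 fold change of 0.24 ± 0.14 (edgeR adjusted p = 0.339). It was 0.16 without control replicate 1, where Polr1e was lowest, 0.09 (adjusted p = 0.789) without both control replicates 1 and 2, and 0.42 (adjusted p = 0.118) without both p53_activated replicates 4 and 5.

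Ubtf, the UBF gene, had 406, 401, 485, 415 and 422 CPM in p53_activated libraries, against 396, 369, 381, 403 and 409 CPM in control libraries, with p53_activated replicate 3 well above the rest. Its log2 fold change was 0.12 ± 0.08 (edgeR adjusted p = 0.398), and 0.08 without p53_activated replicate 3. The fold change interval of Ubtf, 0.968 to 1.22, was the narrowest of the 9.

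Rrn3 came close to a separation of the groups. It had 114, 113, 105, 99.5 and 99.3 CPM in p53_activated libraries, against 99.4, 97.8, 90.0, 88.4 and 82.6 CPM in control libraries, and the groups overlapped only in that control replicate 1 exceeded p53_activated replicate 5. The log2 fold change was 0.21 ± 0.08 (edgeR adjusted p = 0.14). Nolc1 encodes Nopp140, a nucleolar phosphoprotein that carries small nucleolar ribonucleoproteins and acts with treacle. It had 396, 387, 419, 309 and 357 CPM in p53_activated libraries, against 298, 304, 364, 318 and 335 CPM in control libraries. In p53_activated embryos 3 libraries were above every control library, and replicates 4 and 5 lay within the control range. For Nolc1 the log2 fold change was 0.21 ± 0.09 (adjusted p = 0.208). It was 0.14 (adjusted p = 0.51) without both control replicates 1 and 2 and 0.32 (adjusted p = 0.0596) without both p53_activated replicates 4 and 5.

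Rrn3, Polr1a and Nolc1 were the genes with an unadjusted edgeR p under 0.05, and the 250 bases before the annotated start of each are printed here beside a search for one motif, the E-box CACGTG that MYC proteins bind. The sequences are from RefSeq on GRCm38.p6, plus strand, 5′ to 3′, with CACGTG in capitals. They are chr16:13780449-13780698 for Rrn3, chr6:71908803-71909052 for Polr1a and chr19:46075597-46075846 for Nolc1.
Rrn3: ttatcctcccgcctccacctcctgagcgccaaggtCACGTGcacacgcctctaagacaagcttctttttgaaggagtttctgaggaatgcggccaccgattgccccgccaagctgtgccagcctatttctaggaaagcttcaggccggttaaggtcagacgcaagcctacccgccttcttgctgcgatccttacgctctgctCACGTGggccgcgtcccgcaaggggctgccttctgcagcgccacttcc
Polr1a: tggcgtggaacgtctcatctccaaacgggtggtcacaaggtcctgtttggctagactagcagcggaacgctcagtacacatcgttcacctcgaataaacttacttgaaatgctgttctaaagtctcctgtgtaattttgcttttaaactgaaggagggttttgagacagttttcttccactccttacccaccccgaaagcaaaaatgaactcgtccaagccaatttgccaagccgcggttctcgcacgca
Nolc1: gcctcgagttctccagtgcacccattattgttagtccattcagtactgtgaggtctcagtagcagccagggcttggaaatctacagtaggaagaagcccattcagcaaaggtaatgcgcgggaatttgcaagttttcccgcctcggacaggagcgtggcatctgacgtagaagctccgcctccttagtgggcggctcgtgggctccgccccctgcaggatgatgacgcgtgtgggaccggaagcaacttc
The Rrn3 window held the motif at 2 places, starting 215 and 48 bases before the start, and those of Polr1a and Nolc1 held none. CACGTG reads the same on both strands. Of all 32851 promoter windows of this length, 6.02% held it and 0.429% held it 2 or more times. Windows were given for 8 of the 9 genes (Tcof1 was not matched), 13 in all since Ubtf has 6 annotated starts. Of these 13 windows 1 held the motif, that of Rrn3, a count too small to set apart from the share of all windows. GC content was 59.6% for Rrn3, 47.6% for Polr1a and 56.4% for Nolc1, against a median of 52.4% over all windows.

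Divided by exon length, the 9 genes fell into 3 tiers in both groups. In p53_activated libraries the order of CPM per kb of merged exon was Nolc1 (94.1 ± 10.7), Polr1c (79.4 ± 14.5), Ubtf (65.0 ± 5.22) and Polr1d (63.1 ± 8.93), then Tcof1 (25.7 ± 7.84) and Rrn3 (24.6 ± 1.69), then Polr1e (14.5 ± 2.46), Polr1b (10 ± 2.26) and Polr1a (8.00 ± 0.620). In control libraries it was Nolc1 (81.6 ± 6.68), Polr1c (75.7 ± 3.97), Polr1d (67.0 ± 8.15) and Ubtf (59.8 ± 2.52), then Tcof1 (22.1 ± 8.45) and Rrn3 (21.2 ± 1.61), then Polr1e (12.2 ± 2.16), Polr1b (7.37 ± 2.76) and Polr1a (6.54 ± 1.05), as mean ± SD of 5. Neighbours within a tier overlapped in range in both groups, and those on either side of a step (Polr1d or Ubtf with Tcof1, and Rrn3 with Polr1e) did not. Tcof1 itself reached down to 12.5 in p53_activated and 8.24 in control libraries, within the range of the lower tier. The RNAs of the 2 small shared subunits thus stood at a level per kb several times that of the 2 large catalytic subunits. A merged exon length counts exons of every annotated isoform, so levels of genes with many isoforms are understated.

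**Figure D3:**
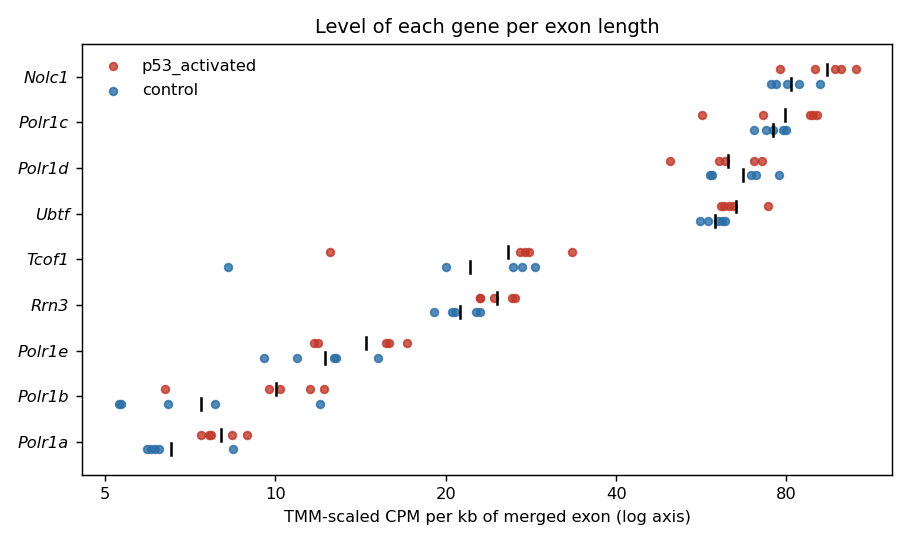
CPM per kb of merged exon (log axis) of each gene in every p53_activated (red) and control (blue) library, with group means as black ticks. Nolc1, Polr1c, Polr1d and Ubtf form the upper tier, and Polr1e, Polr1b and Polr1a the lower one.

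The 9 genes differed in how far embryos of a group lay from one another. The within-group SD of log2 CPM was 0.66 for Tcof1 and 0.43 for Polr1b, larger than in 85.8% and 68.1% of all tested genes. Among tested genes with a mean log2 CPM over 5, these SDs were larger than in 99.1% and 96.3%. The SD was 0.25 for Polr1e, 0.21 for Polr1c, 0.20 for Polr1d, 0.17 for Polr1a, 0.15 for Nolc1, 0.10 for Rrn3 and 0.09 for Ubtf. That of Ubtf was larger than in 4.82% of tested genes with a mean log2 CPM over 5. For Tcof1 the highest library held 2.68 times the CPM of the lowest in the p53_activated group and 3.49 times in the control group. For Ubtf these were 1.21 times in the p53_activated group and 1.11 times in the control group, and for Rrn3 1.15 times in the p53_activated group and 1.2 times in the control group.

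Deviations of log2 CPM from the group means were compared between all 36 pairs of the 9 genes over the 10 libraries, with exact two-sided permutation tests that reordered libraries within groups (14400 orders) and Benjamini-Hochberg adjustment over the pairs. Polr1e and Nolc1 moved together (Pearson r = 0.86, exact permutation p = 0.0016, adjusted 0.0288; Spearman rho = 0.93, p = 0.0016, adjusted 0.0576), and r was 0.93 without the 2 libraries farthest from the median of Polr1e. Polr1c and Polr1d also did (r = 0.84, exact permutation p = 0.000833, adjusted 0.0288; rho = 0.81, p = 0.00424, adjusted 0.0763), with r = 0.69 without the 2 farthest libraries. These were the 2 pairs that passed on Pearson's r, and none passed on Spearman's rho. How often pairs of other tested genes would pass was not computed, so whether the count is particular to the 9 genes is not known. Polr1c, Polr1d and Nolc1 each had their lowest p53_activated value in replicate 4 (129, 152 and 309 CPM), and the part of that library was not tested. Polr1c with Nolc1 (r = 0.85, adjusted exact permutation p = 0.0828) and Polr1d with Nolc1 (r = 0.82, adjusted 0.0828) did not pass. Tcof1 did not move with any of the others beyond the adjustment, and its r ran from -0.69 with Rrn3 (adjusted exact permutation p = 0.178) to 0.40 with Polr1d (adjusted 0.553).

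Genes whose deviations from the group means most resembled those of Tcof1 over the 10 libraries, by Pearson's r across all tested genes, were Ccdc34 (r = 0.99), the activin receptor gene Acvr2b (0.99), Taf3, which encodes a subunit of the general transcription factor TFIID (0.98), Ccar1 (0.98) and 2310033P09Rik (0.98). With 14527 genes ranked on 10 libraries, values this high are a description and no test. All 5 were low in the same 2 libraries as Tcof1. Ccdc34 had 83.1 CPM in p53_activated replicate 2 and 197 to 251 CPM in the other p53_activated libraries, and 62.3 CPM in control replicate 1 and 214 to 294 CPM in the other control libraries. Taf3 had 17.2 CPM in p53_activated replicate 2 against 44.7 to 68.5 CPM in the rest of that group, and 14.0 CPM in control replicate 1 against 49.0 to 56.6 CPM. These genes lie on chromosomes 2, 9, 2, 10 and 11, and Tcof1 on chromosome 18. For the mean of the standardised deviations of the other 8 genes, the nearest genes were Dnaaf2 (r = 0.98), Nsfl1c (0.97), Llph (0.96), Mplkip (0.96) and Hes1 (0.95).

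**Figure D4:**
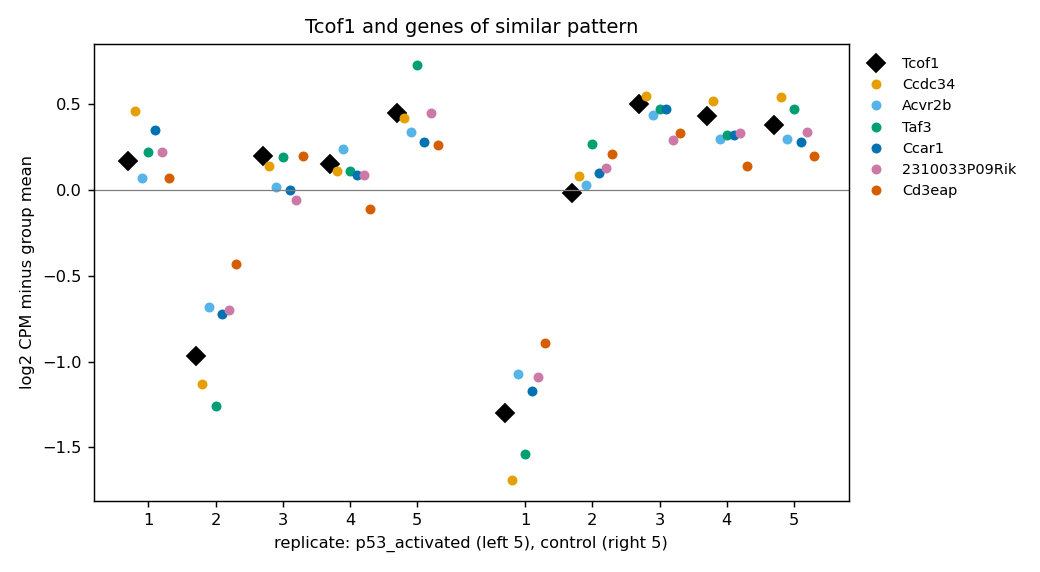
Deviation of log2 CPM from the group mean for Tcof1 (black diamonds), the 5 genes nearest to it in pattern and the Pol I subunit gene Cd3eap, in the p53_activated libraries (left) and control libraries (right). All 7 genes are lowest in p53_activated replicate 2 and in control replicate 1, where Tcof1 is at -0.97 and -1.30.

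The rest of the Pol I machinery was read from lists of its genes. For comparison with the counts of calls, 4.49% of all tested genes rose and 2.74% fell. The remaining Pol I subunits Twistnb, Cd3eap and Znrd1 gave 0 of 3 calls, with log2 fold changes of -0.07 ± 0.15, 0.09 ± 0.20 and -0.17 ± 0.11 (edgeR adjusted p = 0.842, 0.85 and 0.371). Cd3eap was -0.08 without control replicate 1. Of the 5 subunits common to all 3 nuclear polymerases 0 were called (median 0.10), and Polr2h had the smallest p of them (0.21, adjusted p = 0.255). Of 11 subunits specific to RNA polymerase III, which transcribes the 5S ribosomal RNA and transfer RNAs, 0 rose and Polr3k fell, to 95.5 ± 8.25 CPM in p53_activated against 118 ± 5.69 CPM in control libraries (log2 fold change -0.31 ± 0.08, adjusted p = 0.0352), with no overlap between the groups. The Polr3k call did not hold when any 1 library was left out except control replicate 1 or p53_activated replicate 2 (adjusted p 0.0504 to 0.0978), nor with no filter (0.0853), with the length trend taken out (0.0982), with the replicate block (0.0795) and without both control replicates 1 and 2 (0.0788) or both p53_activated replicates 4 and 5 (0.151).

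Of 14 further factors of ribosomal DNA transcription 1 rose and none fell, where 4.49% of all tested genes rose and 2.74% fell. Their median log2 fold change was 0.19. Baz2a, which encodes the TIP5 subunit of the complex that silences ribosomal DNA repeats, stood at 30.6, 35.9, 30.7, 60.4 and 44.6 CPM in p53_activated libraries, against 29.7, 23.7, 22.0, 26.7 and 20.7 CPM in control libraries (0.72 ± 0.18, edgeR adjusted p = 0.0252). Its groups did not overlap, but the call was lost without control replicates 2 (0.0647), 3 (0.0534) or 5 (0.0593) or p53_activated replicate 5 (0.0654), with the length trend taken out (0.0661) and without both control replicates 1 and 2 (0.0611). Without both p53_activated replicates 4 and 5 the log2 fold change was 0.41 (0.122). Heatr1, which encodes a small subunit processome protein also needed for ribosomal RNA transcription, had 41.0 ± 5.69 CPM in p53_activated and 29.9 ± 4.84 CPM in control libraries (0.45 ± 0.13, adjusted p = 0.0528). It passed with DESeq2 (0.021), with no filter (0.031) and with a minimum count of 30 (0.0495). Mycn, a regulator of ribosome production, had 34.5 ± 4.22 CPM in p53_activated and 25.7 ± 3.82 CPM in control libraries (0.42 ± 0.13, adjusted p = 0.0575), and passed without control replicate 3 (0.0189), with DESeq2 (0.0258) and with the length trend taken out (0.038).

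Downstream of transcription, 4 of 30 genes of nucleolar ribosomal RNA processing and ribosome assembly rose and none fell, with a median of 0.17, where 4.49% of all tested genes rose and 2.74% fell. The log2 fold change was above 0 in 28 of these 30 genes, against 48.6% of all tested genes. It was above 0 in 11 of 15 small nucleolar ribonucleoprotein genes and 11 of 14 further transcription factors. In Pol III-specific subunits it was above 0 in 6 of 11, and in the remaining Pol I subunits in 1 of 3. Utp20, a component of the small subunit processome, had 55.7, 54.6, 53.7, 61.3 and 49.2 CPM in p53_activated libraries, against 23.8, 25.1, 26.2, 24.3 and 22.2 CPM in control libraries. Every p53_activated library was well above every control library (log2 fold change 1.17 ± 0.10, edgeR adjusted p = 1.53e-06). Rrp12, a ribosome export factor (0.44 ± 0.10, adjusted p = 0.0174), Ddx21, a nucleolar RNA helicase (0.48 ± 0.12, adjusted p = 0.0202), and Tsr1, a factor of small subunit maturation (0.92 ± 0.23, adjusted p = 0.0233), also rose. Ddx21 had its lowest values in control replicates 1 and 2 (63.2 and 73.9 CPM), and without both of them it was 0.31 (0.0673), while Rrp12 was 0.35 (0.0872). Ddx21 and Rrp12 lost their calls without p53_activated replicate 2 as well (0.0531 and 0.0511), and Ddx21 without control replicate 2 (0.0636). Tsr1 shares 32.3% of its exon length with Srr on the opposite strand, so its count is uncertain, and it lost its call without control replicates 2 (0.0574) or 4 (0.0604) or p53_activated replicates 2 (0.0524) or 5 (0.0613), with the replicate block (0.0581) and without both p53_activated replicates 4 and 5 (0.115).

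Of 15 small nucleolar ribonucleoprotein genes 0 were called (median 0.10), with Nop56, a core protein of box C/D particles, at 0.27 (edgeR adjusted p = 0.193). Nop56 passed without p53_activated replicate 4 (0.37, adjusted p = 0.0237) and without both p53_activated replicates 4 and 5 (0.44, 0.0151). In the list of the 5S particle and MDM2 surveillance, by which a faulty nucleolus activates p53, 3 of 10 tested genes rose and none fell, and all 3 are known p53 targets or partners: Mdm2 (0.95 ± 0.10), Mdm4 (0.70 ± 0.09) and Rps27l (1.21 ± 0.17). Rpl5 (0.19, adjusted p = 0.594) and Rpl11 (0.16, adjusted p = 0.804), the ribosomal proteins that bind MDM2, did not pass, and Rpl5 shares 26.7% of its exon length with other genes. Of 9 tested genes of other mandibulofacial and acrofacial dysostoses 0 were called (median 0.09), among them Txnl4a (0.26, adjusted p = 0.116) and Eftud2 (0.16, adjusted p = 0.311) of the spliceosome, and Plcb4 (0.40, adjusted p = 0.34) of endothelin signalling. For Eftud2, 26.9% of the exon length overlaps a gene on the other strand. Over the 8 lists 8 of 97 tested genes rose (8.25%, against 4.49% of all tested genes) and 1 fell (1.03%, against 2.74%), 9.28% in all against 7.23%. Of the 8 that rose, 3 were Mdm2, Mdm4 and Rps27l, the p53 targets or partners above, so the total does not describe nucleolar and polymerase genes alone. The share without these 3 was not computed. The lists were put together with results of these data known.

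**Figure D5:**
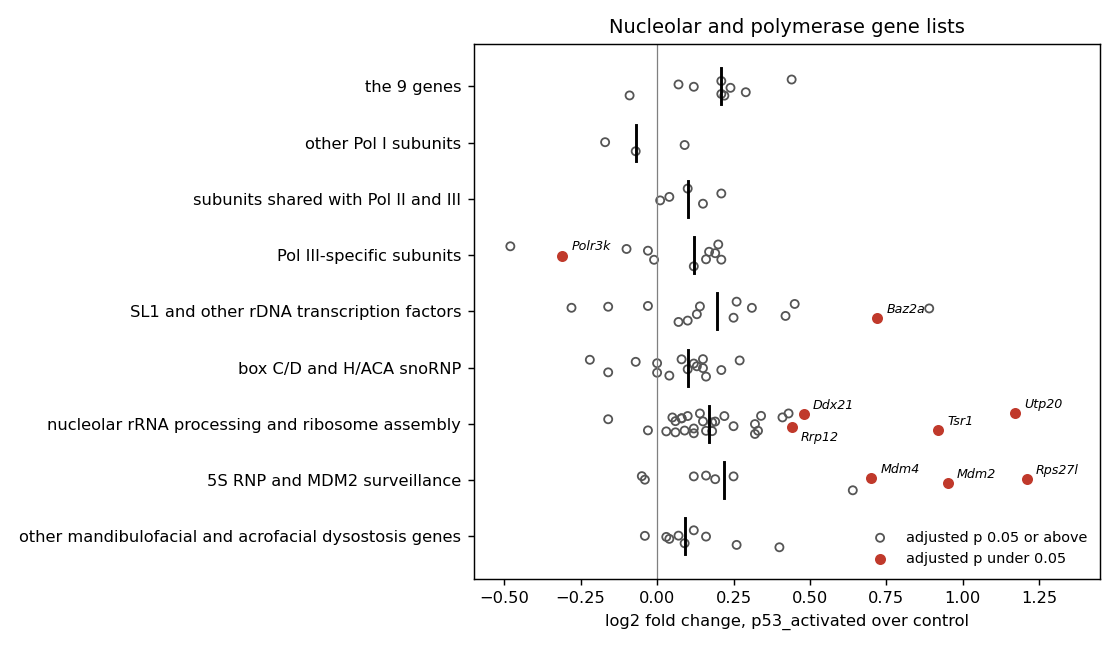
Log2 fold change, p53_activated over control, of the 9 genes and of each tested gene of the 8 lists, with called genes (adjusted p under 0.05) filled and named and list medians as black bars. None of the 9 genes is filled, and Utp20 (1.17), Rps27l (1.21) and Mdm2 (0.95) lie farthest to the right among the called genes of the lists.

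The authors' deposited table likewise called none of these genes, with 0 of 9 adjusted p under 0.05 where 10.8% of genes with an adjusted p passed. The largest log2 fold changes of the 9 in the authors' deposited table were 0.39 for Polr1b (adjusted p = 0.201) and 0.28 for Polr1a (adjusted p = 0.101), and Tcof1 was at 0.16 (adjusted p = 0.796). Polr1d was the 1 gene below 0 in the authors' deposited table (-0.08, adjusted p = 0.75).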

How the data were processed

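Per the labels' protocols, embryos were digested with trypsin, live GFP-positive cells were sorted, and TruSeq libraries were made from polyadenylated RNA, 1 library per embryo. Raw counts for each Ensembl gene were deposited by the authors. Per the submitters' processing notes, the build was GRCm38 and the tools were DESeq2 1.14.1, HTSeq 0.6.1, SAMtools 1.3.1 and HISAT2 2.0.4. Of the annotation release and the strand setting the sources used here say nothing, so overlapping genes are treated as uncertain. Per the file headers, a second deposited table holds p-values, a test statistic (a score), log2 fold changes with errors, and a mean signal per gene. Its sign follows p53_activated over control, as Cdkn1a at 3.51 shows in the authors' deposited table.

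Genes were kept by filterByExpr (minimum count 10, minimum total 15), libraries scaled by TMM, and groups compared in edgeR 4.0.16 (R 4.3.3) by its quasi-likelihood test with robust dispersions and no covariate. The common biological coefficient of variation was 25.5%. Intervals are 95% intervals of that fit, and SE is the log2 fold change over the square root of F. CPM are TMM-scaled, with a prior count of 2 for log2 CPM. Positions and exon lengths are from GENCODE M21, in which 99.5% of identifiers were found. DESeq2 1.42.0, limma-voom (limma 3.58.1) and the other alternatives are described with their effects at the end. Replicates differed by more than counting noise in every pair (chi-square over degrees of freedom at least 14.9).

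The 9 genes and the lists were chosen with earlier results of these data known. Named are the 9 genes, up to 4 genes per list with the smallest p (and others where a miss is stated), and the 5 genes nearest in pattern.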

Additional observations from a re-analysis of the deposited data

Results flagged for a closer look

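Outliers were looked for in 18 sets of 5 libraries, each of the 9 genes in each group, by setting the gap of the highest or lowest library to its neighbour against the range of the group. Chance flags about 1 in 20 such sets, and 2 of 18 stood out. Ubtf was at 485 CPM in p53_activated replicate 3, with a gap of 0.749 of the range, where the critical value is 0.71. Polr1a was at 99.7 CPM in control replicate 1, with a gap of 0.878 of the range. Control replicate 1 was also the library lowest in Tcof1 and highest in the ratio of the globins Hbb-y to Hbb-bh1. The part of that library's stage or makeup in the value of Polr1a was not tested.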

How the results depend on the processing

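Of 198 values of the 9 genes under 22 alternatives, 193 kept their direction and their side of the threshold. Called were Polr1a without control replicate 1 (leave-one-out range of its log2 fold change 0.26 to 0.40) and at 0.38 without both control replicates 1 and 2, and Polr1b without control replicate 3 (range 0.34 to 0.69). Signs turned for Tcof1 (-0.09 without both control replicates 1 and 2) and Polr1d (0.04 without both p53_activated replicates 4 and 5), and, among list genes, for Twistnb (0.01 without p53_activated replicate 4 and also without both 4 and 5; leave-one-out range -0.14 to 0.01), Cd3eap (-0.08 without control replicate 1 and without both controls; leave-one-out range -0.08 to 0.18), Polr2k (-0.08) and Polr2f (-0.06) without both controls, and Polr2f without p53_activated replicate 3 (-0.00; leave-one-out range -0.00 to 0.11). The cause was not tested. Leave-one-out ranges were 0 to 1 for the 9 genes called, 636 to 1025 for all calls, 430 to 707 for higher and 192 to 433 for lower calls, 5 to 11 for list genes called higher and 0 to 1 for those called lower. DESeq2 called 1676 genes (699 lower) and 13 list genes higher, against 1050, 398 and 8. Without both control replicates 1 and 2 there were 656 calls (194 lower), 5 list genes higher and 1 of the 9. List genes called lower were 0, against 1, without both controls, without both p53_activated replicates, with no filter, with the length trend removed and with the replicate block. Replicate numbers were not taken as pairs: same-numbered libraries deviated together (r over 0.1) in 1 of 5 pairs, and 1 of 5 p53_activated libraries correlated best with its own number. The replicate block gave 804 calls and 0 of the 9 genes. With fewer libraries a test has less power. A gene that did not pass can still differ by an amount within its interval. The power at this depth and number of embryos was not computed.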

Other observations

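After the values were seen, genes of ribosomal RNA production were looked up among those whose deviations from the group means resembled Tcof1. Cd3eap, a Pol I subunit gene, had r = 0.94 with Tcof1 over the 10 libraries and was placed 19 of 14527 genes. Its deviation was -0.43 in p53_activated replicate 2 and -0.89 in control replicate 1 on the log2 scale. Dkc1, which encodes the pseudouridine synthase of the small nucleolar particles, had r = 0.93 and was placed 44. Both are descriptions with no test.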
